A study of Mus musculus with 18 samples.

Results

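Splenic natural killer (NK) cells from which Eomes can be deleted were compared between stage II and stage III of maturation, across all expressed genes. The comparison takes the 3 libraries labelled KO stage III and the 3 labelled KO stage II, 6 of the 18 libraries of the series, and 14156 genes had enough counts to be tested. The members were chosen by their labels alone: stage II cells carry CD27 on the surface without CD11b, and stage III cells carry both. KO mice are C57BL/6 animals that carry 1 Ncr1-iCreERT2 knock-in allele, the Rosa26YFPLSL reporter and Eomesfl/fl (both Eomes alleles floxed), aged 8 to 12 weeks and given tamoxifen for 3 days. All KO libraries of both stages share these alleles and this treatment. The comparison is between stages within the KO background and does not measure the effect of the deletion. Eomes RNA itself differed between the KO stages, as given below, and the part of that difference in the step was not tested. The WT mice are also C57BL/6, with no further genotype in the labels, and the same treatment text is attached to them. Cre recombinase is made from 1 Ncr1 allele and is activated by tamoxifen, which limits deletion to cells that express Ncr1, the gene of the receptor NKp46. The labels do not say that YFP-positive cells were selected. Each preparation pooled splenocytes, and the labels speak of 3 experiments without tying them to replicate numbers, so p-values measure the spread between these pools.

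NK cells are innate lymphocytes that kill infected or transformed cells by releasing perforin and granzymes. In the mouse spleen they gain CD11b and then lose CD27 as they mature, and late cells carry KLRG1, leave tissues through the sphingosine phosphate receptor S1P5 and hold more cytotoxic protein. Eomes and T-bet, encoded by Tbx21, are T-box transcription factors that bind a short DNA element. Eomes marks conventional NK cells, while type 1 innate lymphoid cells (ILC1) need T-bet, lack Eomes and carry the integrin CD49a, TRAIL and the IL-7 receptor. Ly49 receptors are the lectin-like receptors through which mouse NK cells read MHC class I.

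The shared T-box element TCACACCT, or AGGTGTGA on the other strand, was looked for in the RefSeq promoters of the GRCm38.p6 assembly, each 300 bases long, from 250 before to 50 after a gene's start. It stood in 1.28% of all 32851 promoters, in 0.901% of the 12979 promoters of tested genes, in 0.681% of the 734 promoters of genes that were higher in KO stage III and in 1.28% of the 703 promoters of genes that were lower. Of the genes on the lists described here, a match before the start was found in 2 that changed, 1 in each direction, and both stretches are shown for that reason. Nkg7, a granule membrane protein of killer cells, rose, and its stretch lies on the plus strand at chr7:43437068-43437137. Cd200r2, an inhibitory receptor family member used here as an ILC1 marker, fell, and its stretch lies on the plus strand at chr16:44866892-44867011. Capitals mark the element.
Nkg7: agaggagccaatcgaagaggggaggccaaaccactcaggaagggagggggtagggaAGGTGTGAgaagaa
Cd200r2: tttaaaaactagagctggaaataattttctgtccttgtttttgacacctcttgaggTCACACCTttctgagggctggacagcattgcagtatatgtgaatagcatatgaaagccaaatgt
In Nkg7 the element is on the strand opposite to the gene and begins 14 bases before the start that RefSeq gives, and in Cd200r2 it is on the gene's strand and begins 149 bases before it. GENCODE begins the gene Nkg7 at 43437073, so by that model its element lies inside the gene. A match describes letters only and says nothing of binding.

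Total counts ran from 21942834 to 26092733 in the KO stage II libraries and from 19898606 to 24909877 in KO stage III. The 3 KO stage III libraries agreed less well with each other than any other group did. Their log2 values correlated at 0.922 to 0.949 across tested genes, against 0.981 to 0.984 in KO stage II, and voom's quality weights gave them the 3 lowest values of the 18 libraries. Genes with at least 1 count numbered 14824 in KO stage III replicate 1, 21454 in replicate 2 and 16536 in replicate 3, with 17899 to 20836 in KO stage II. The 10 highest genes held 17.0% of all counts in replicate 1, 10.6% in replicate 2 and 20.6% in replicate 3, with 10.2 to 11.1% in KO stage II. Of the tested genes, 1592 had no count in replicate 1, 682 in replicate 3 and 53 in replicate 2. Values are therefore given for each library, in the order of replicates 1, 2 and 3. They are normalised CPM, the deposited unit after scaling the library size by edgeR's trimmed mean of M values.

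The sorted markers and the targeted gene were checked first. Itgam, which encodes CD11b, measured 20.8, 25.3 and 16.9 in stage II and 105, 293 and 107 in stage III. It rose 8.02-fold (log2 fold change 3.00 ± 0.34, adjusted p = 2.76e-05), as the gates imply, and is a check of the labels and no finding. Cd27 lies inside both gates and did not pass the test, at 373, 362 and 369.8 in stage II and 426, 317 and 396 in stage III (log2 fold change 0.04 ± 0.18, adjusted p = 0.905). Eomes (ENSMUSG00000032446, chromosome 9, 118478212 to 118486132, GRCm38) measured 51.4, 71.1 and 57.1 in stage II and 181, 153 and 173 in stage III. All 3 stage III libraries lay above all 3 stage II libraries. The rise was 2.82-fold (log2 fold change 1.497 ± 0.15, adjusted p = 8.64e-06). In WT cells Eomes measured 169, 208 and 209 in stage II and 278, 255 and 282 in stage III, a log2 fold change of 0.48 that did not pass the test (adjusted p = 0.105). The difference between the KO and the WT step was 1.02 ± 0.21 on the log2 scale and was not called by edgeR (adjusted p = 0.0846). DESeq2 called it (adjusted p = 0.000763), as did edgeR without KO stage III replicate 2 (adjusted p = 0.00562). The fit without replicate 2 called such a difference for 2443 genes. Of 24 alternatives 3 called the Eomes difference, and without KO stage III replicates 1 and 3 it was 0.86. The labels do not name the floxed exons and the table has 1 count per gene, so the share of cells with a deleted allele cannot be read from these values. Tbx21 measured 169, 96.7 and 92.2 in stage II and 183, 159 and 145 in stage III, with overlapping stages (log2 fold change 0.44 ± 0.20, adjusted p = 0.169). Ncr1, which drives the Cre, measured 2191, 2036 and 2191 in stage II and 2216, 1631 and 1791 in stage III and did not pass the test (log2 fold change -0.19 ± 0.27, adjusted p = 0.688). In WT it stood at 2102 in stage II and 2043 in stage III in replicate 1, and at 3574 to 3878 in the other 4 libraries. Klrk1, which encodes the NK receptor NKG2D, was at 2506 to 3087 in the 6 KO libraries and Klrb1c, which encodes NK1.1, at 1989 to 3056, so both markers were high in every library.

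The step changed the RNA of 1429 of 14156 tested genes, or 10.1%, at an adjusted p under 0.05 in edgeR's quasi-likelihood test. Of these, 745 (5.26%) were higher and 684 (4.83%) lower in stage III. A change of at least 2-fold was seen in 685 of them, 316 higher and 369 lower. The libraries did not contribute equally. On the scale log2(normalised CPM + 1), the median gene that was higher lay 0.95, 0.43 and 0.93 above the KO stage II mean in KO stage III replicates 1, 2 and 3. The median gene that was lower stood at -1.11, -0.73 and -1.07. Replicate 2 showed the smallest difference of the 3 for 987 of the 1429 genes. The 2 groups did not overlap for 1255 of the 1429 genes, 579 higher and 676 lower, while over all tested genes 8.05% did not overlap upwards and 11.9% downwards.

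The number of genes depended on which libraries were used. Without KO stage III replicates 1 and 3 it was 506 of 18599 genes (2.72%), which included 395 of the 1429, and 1360 of the 1429 kept their direction. That fit leaves 1 KO stage III library, which is assumed to vary like the other groups, so a call that ends in it may have kept its size, and the log2 fold change of that fit is given beside it. Without replicate 2 it was 4828 (29.6%), without replicate 3 917, and without KO stage II replicate 1, 2 or 3 it was 620, 720 and 666. The 6 KO libraries alone gave 189, all of which were among the 1429. A set of 515 genes was called whichever of the 12 stage II and III libraries was left out, 236 higher and 279 lower, and 143 were called under all 25 alternatives tried.

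**Figure D1:**
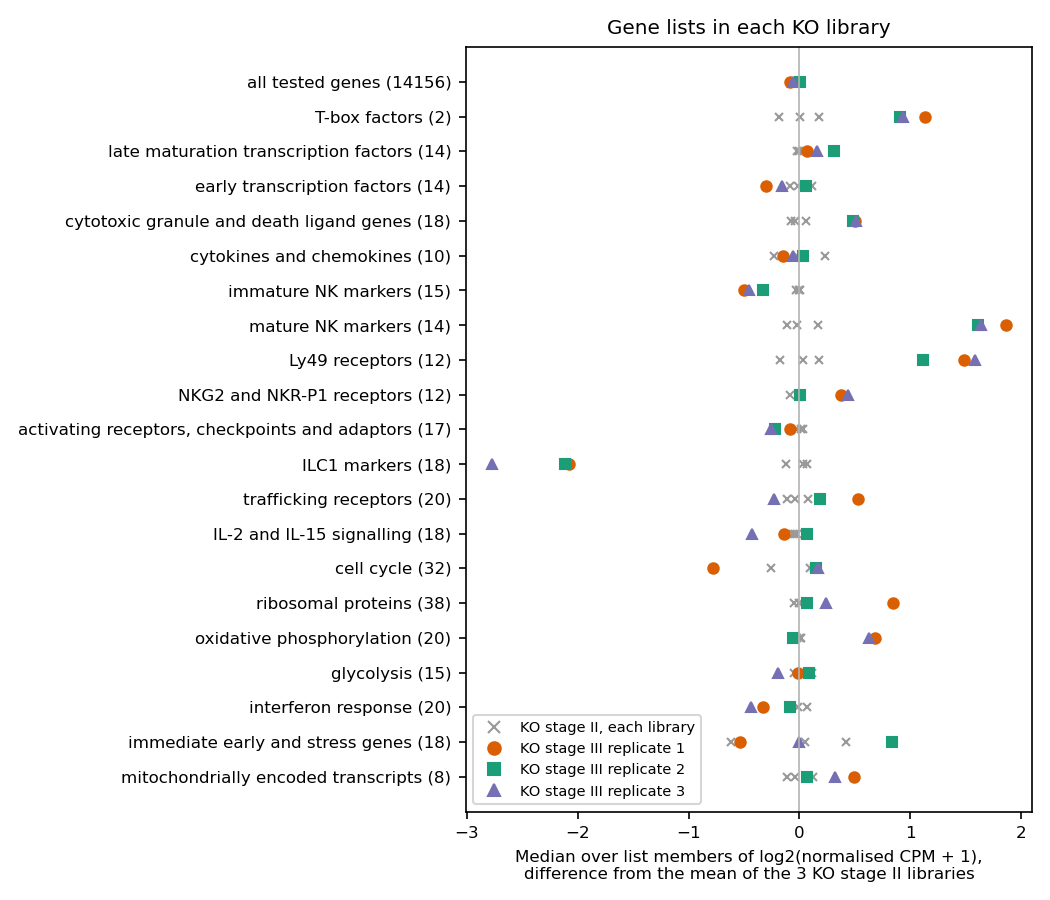
Median over the members of each gene list of log2(normalised CPM + 1), as the difference from the KO stage II mean (horizontal axis, log2 units), with grey crosses for the KO stage II libraries and coloured symbols for the KO stage III libraries. Mature NK markers and Ly49 receptors lie above 1 in all 3 stage III libraries, ILC1 markers lie at or below -2.08, and oxidative phosphorylation genes lie at 0.69, -0.05 and 0.63 in replicates 1, 2 and 3.

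Markers of mature NK cells rose. Of 14 tested, 12 rose and none fell, with a median log2 fold change of 1.78, against 0.01 over all tested genes. Itgam, whose rise the gates imply, is on this list and is counted in each number given for it. The markers that did not pass were Spn and Itgb2, at 0.07 and -0.17. Klrg1, an inhibitory receptor that binds cadherins, measured 16.4, 19.8 and 12.5 in stage II and 66.1, 107 and 130.0 in stage III. All 3 stage III values lay above all stage II values, and the rise was 6.22-fold (log2 fold change 2.64 ± 0.26, adjusted p = 8.64e-06). S1pr5, the receptor by which NK cells leave lymphoid tissue and marrow, measured 19.6, 19.9 and 16.7 in stage II and 93.9, 72.4 and 67.9 in stage III and rose 4.17-fold (log2 fold change 2.06 ± 0.14, adjusted p = 1.4e-07). Cma1, a chymase, measured 2.53, 6.96 and 3.01 in stage II and 29.3, 47.5 and 111 in stage III. It had the largest fitted rise among genes named by the rule, 15.05-fold (log2 fold change 3.91 ± 0.42, adjusted p = 1.71e-05), and its 3 stage III libraries differed among themselves by several fold. Lgals1, the lectin galectin-1, measured 448, 539 and 527 in stage II and 2528, 1269 and 2602 in stage III, with replicate 2 the lowest of the stage III libraries but above all of stage II (log2 fold change 2.08 ± 0.23, adjusted p = 2.66e-05). The transcription factors Zeb2 and Prdm1 stand on this list as well. Without KO stage III replicates 1 and 3, 10 of the 14 still rose, with a median of 1.64.

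**Figure D2:**
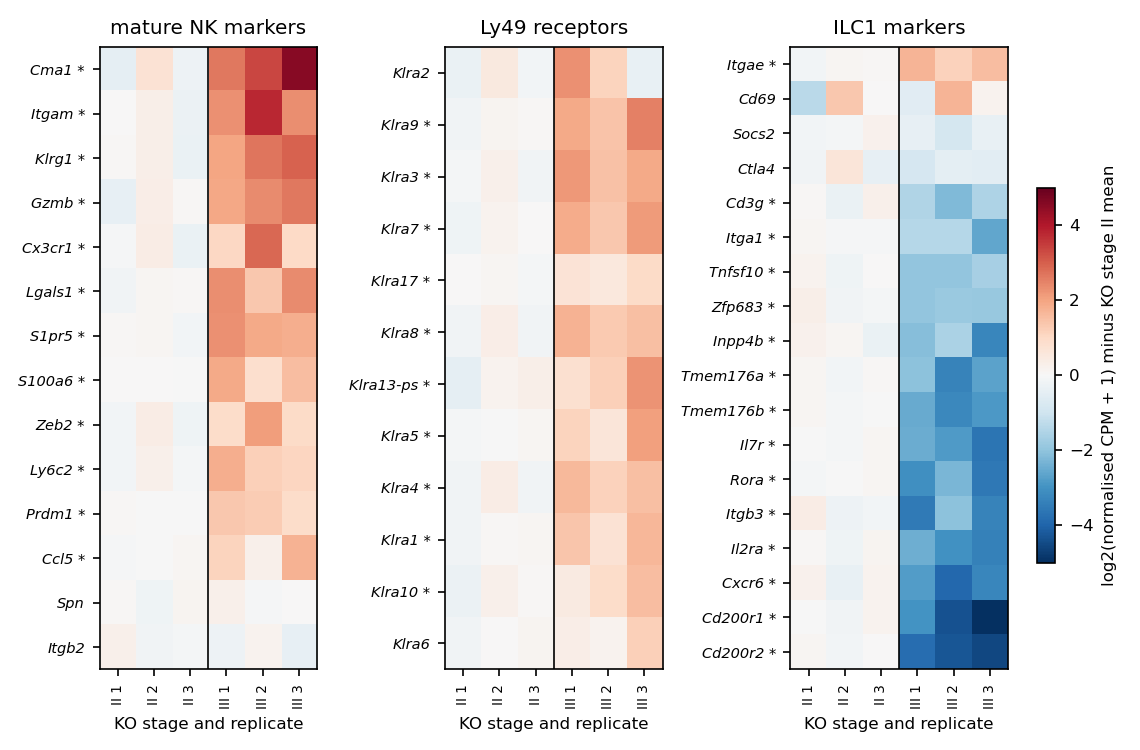
Each cell gives log2(normalised CPM + 1) minus the KO stage II mean for a gene (rows) in a KO library (columns, stage and replicate), for mature NK markers, Ly49 receptors and ILC1 markers, and an asterisk marks genes that passed edgeR's test. Red fills nearly all stage III columns of the first list, where 12 of 14 genes rose, and blue nearly all of the ILC1 list, where 14 of 18 fell. The 12 include Itgam, whose rise the gates imply.

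Granzymes, the proteases of the cytotoxic granule, were among the largest rises. Of 18 cytotoxic granule and death ligand genes, 8 rose and 1 fell, with a median of 0.43. Gzma measured 735, 917 and 915 in stage II and 8297, 4812 and 12577 in stage III. Replicate 3 stood highest and replicate 2 lowest, all well above stage II, and the rise was 10.01-fold (log2 fold change 3.32 ± 0.26, adjusted p = 6.18e-07). Gzmb measured 136, 228 and 188 in stage II and 691, 929 and 1114 in stage III and rose 4.95-fold (log2 fold change 2.31 ± 0.26, adjusted p = 3.05e-05), with replicate 1 the lowest of stage III. Per length of the gene, in RPKM, the levels in stage III were 8343, 5577 and 11211 for Gzma, 430.1, 667 and 615 for Gzmb and 41.1, 27.7 and 38.0 for Gzmm, so Gzma RNA was the most abundant of these 3 in each library. Gzmk measured 1.78, 1.56 and 2.48 in stage II and 21.6, 8.57 and 25.9 in stage III, a rise of 9.62-fold from a low level (log2 fold change 3.27 ± 0.64, adjusted p = 0.00387). That call ended without KO stage III replicates 1 and 3 (log2 2.14, adjusted p = 0.228). Gzmm measured 17.1, 18.4 and 23.3 in stage II and 68.5, 40.0 and 71.4 in stage III and rose (log2 fold change 1.62 ± 0.24, adjusted p = 0.000341). Nkg7, whose promoter stretch is shown above, measured 5271, 5565 and 5995 in stage II and 15677, 7570.4 and 19485 in stage III, and the rise (log2 fold change 1.34 ± 0.22, adjusted p = 0.000955) was carried mainly by replicates 1 and 3. Without them it was 0.43 and did not pass (adjusted p = 0.0745). The gene that fell was Tnfsf10, which encodes the death ligand TRAIL, at 82.3, 62.4 and 72.7 in stage II and 17.8, 17.7 and 22.1 in stage III, or 3.78-fold lower (log2 fold change -1.92 ± 0.20, adjusted p = 1.05e-05). Without the 2 libraries with few genes, 4 members rose and 1 fell.

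Serpinb9b, a relative of the granzyme B inhibitor Serpinb9, followed the granzymes in its direction. It measured 9.42, 18.3 and 17.0 in stage II and 143, 114 and 228 in stage III and rose 10.8-fold (log2 fold change 3.44 ± 0.29, adjusted p = 1.43e-06). Among the other large rises were Fcgr2b, the inhibitory Fc receptor, at 6.92, 12.4 and 7.19 in stage II and 56.4, 64.6 and 69.4 in stage III (log2 fold change 2.84 ± 0.22, adjusted p = 4.76e-07), and Cdc20b at 0.999, 1.56 and 1.57 in stage II and 10.8, 12.3 and 19.7 in stage III (log2 fold change 3.38 ± 0.25, adjusted p = 3.21e-07). In both, the 3 stage III libraries lay within 2-fold of each other and apart from stage II. Wdr95 rose by 2.48 on the log2 scale, Trdv5, a variable segment of the T cell receptor delta locus, by 2.63 and Parm1 by 2.74. Reads of receptor segments may be split between near-identical copies, so the value of Trdv5 is uncertain.

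**Figure D3:**
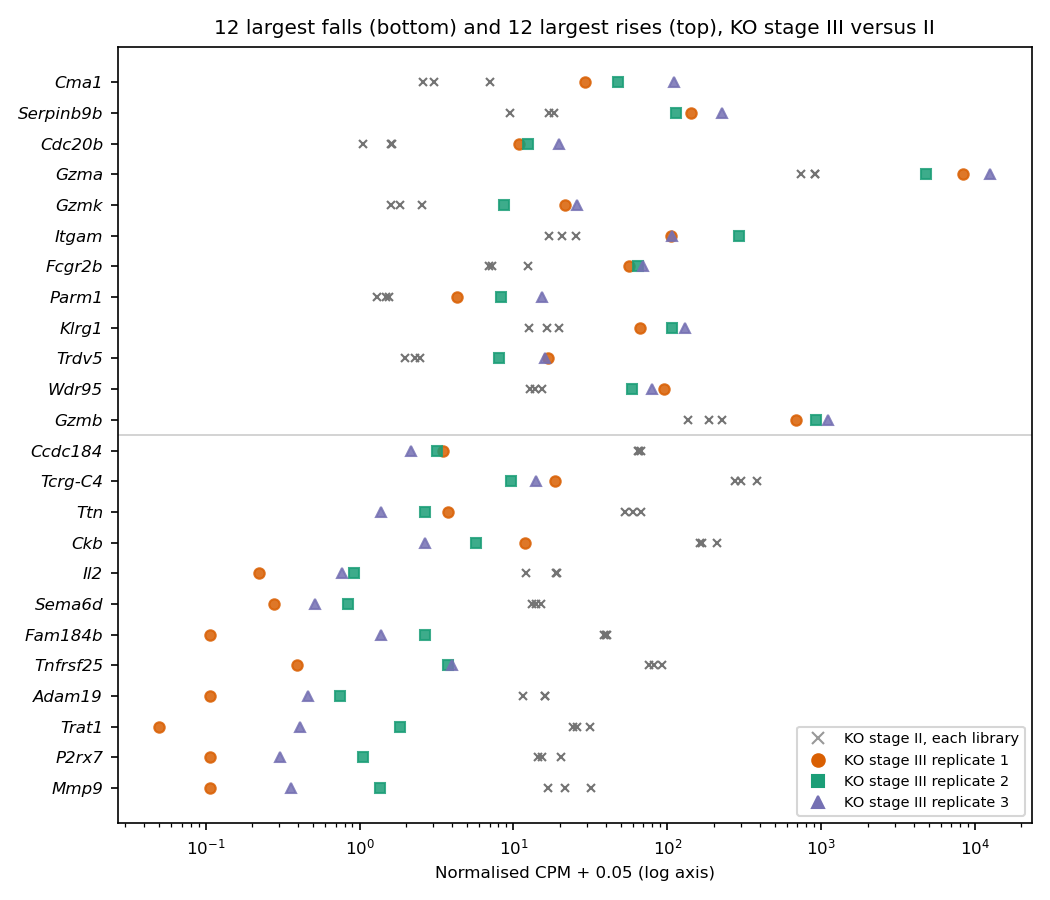
Normalised CPM with 0.05 added, on a log axis, of the 12 largest rises (upper rows) and 12 largest falls (lower rows) among named genes, 1 symbol for each KO library. For every gene shown the grey stage II crosses and the coloured stage III symbols do not overlap, which the rule for naming these genes required. The upper rows include Itgam, whose rise the gates imply.

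RNA of the Ly49 receptors rose broadly. Of 12 tested, 10 rose and none fell, with a median of 1.51, and 11 did not overlap between the stages. Klra7 measured 377, 487 and 441 in stage II and 1585, 1111 and 1903 in stage III, a rise of 3.52-fold (log2 fold change 1.82 ± 0.17, adjusted p = 5.57e-06). Klra9 measured 93.2, 117 and 109.8 in stage II and 398, 289 and 607 in stage III (log2 fold change 2.02 ± 0.20, adjusted p = 8.64e-06), and Klra3 measured 80.2, 104 and 77.3 in stage II and 393, 239 and 327 in stage III (log2 fold change 1.87 ± 0.19, adjusted p = 1.05e-05). In all 3 genes replicate 2 was the lowest stage III library and still above every stage II library. Klra8, the activating receptor Ly49H, measured 367, 520.3 and 363 in stage II and 1371, 1016 and 1174 in stage III and rose 2.85-fold (log2 fold change 1.51 ± 0.18, adjusted p = 5.16e-05). Klra1 measured 71.8, 85.5 and 86.6 in stage II and 212, 134 and 255 in stage III (log2 fold change 1.30 ± 0.21, adjusted p = 0.00059), and its call ended without KO stage III replicates 1 and 3 (log2 0.72, adjusted p = 0.0894). Klra2 was near the limit of detection, at 0.0357, 0.801 and 0.174 in stage II and 5.41, 1.79 and 0 in stage III, and did not pass. The members are near-identical in sequence and the authors' counting could split reads between them, so single values are less certain than the list. The list's 12 genes summed to 2184, 3113 and 2713 normalised CPM in KO stage II and to 7316, 6129.5 and 10254 in KO stage III. Without replicates 1 and 3, 7 members rose, with a median of 1.16.

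In WT cells 1 of the 12 Ly49 genes rose, with a median of 0.32, against 0.989% of all tested genes that rose in WT. The list summed to 4365, 5989 and 6253 in WT stage II, above every KO stage II library, and to 6766, 7377 and 7849.7 in WT stage III, a range that the KO stage III libraries straddle. For the difference between the steps edgeR called none of the 12, while DESeq2 called 8 and edgeR without KO stage III replicate 2 called 8, all larger in KO. For Klra7 the difference was 1.35 ± 0.24 (adjusted p = 0.0548 with edgeR, 4.07e-05 with DESeq2 and 0.000723 with edgeR without that library). For Klra3 it was 1.27 ± 0.26 (adjusted p = 0.0885, 0.00127 and 0.00253 in the same order). The fit without KO stage III replicates 1 and 3 called 0 of the 12.

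The other lectin-like receptors moved both ways, with 4 of 12 higher, 3 lower and a median of 0.35. Klrd1, the CD94 subunit shared by NKG2 receptors, measured 991, 1141 and 964 in stage II and 2567, 1572 and 2199 in stage III and rose (log2 fold change 1.03 ± 0.16, adjusted p = 0.000635). Klre1 (log2 fold change 1.23 ± 0.20, adjusted p = 0.000709), Klri2 (log2 fold change 1.09 ± 0.18, adjusted p = 0.000807) and Klrc2, which encodes the activating NKG2C (log2 fold change 0.78 ± 0.14, adjusted p = 0.00185), also rose. Of these 4, Klrc2 kept its call without KO stage III replicates 1 and 3 (log2 0.75), and the others did not pass, at 0.60, 0.53 and 0.78. Klrb1b, an inhibitory NKR-P1 receptor, measured 604, 564 and 572 in stage II and 214, 172 and 215 in stage III and fell 2.89-fold (log2 fold change -1.53 ± 0.14, adjusted p = 2.29e-06). Klrc1, which encodes the inhibitory NKG2A, measured 1181, 1157 and 1254 in stage II and 835, 545 and 648 in stage III and fell in every stage III library (log2 fold change -0.82 ± 0.15, adjusted p = 0.00194). Klrb1f fell as well (log2 fold change -0.62 ± 0.13, adjusted p = 0.00455). With only the 6 KO libraries no member of this list was called higher and 1 was called lower.

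Among 17 activating receptors, checkpoints and adaptors, 4 rose and 6 fell, with a median of -0.19. Fcgr3, the receptor for antibody-coated targets, measured 89.6, 84.8 and 80.9 in stage II and 287, 144 and 221 in stage III and rose 2.55-fold (log2 fold change 1.35 ± 0.19, adjusted p = 0.00024). The adaptor gene Fcer1g was at 1815, 1786 and 1832 in stage II and 3264, 1793 and 3782 in stage III. The adaptor gene Tyrobp was at 2445, 2395 and 2347 in stage II and 4953, 2652 and 4599 in stage III. In both, replicate 2 stood with or next to stage II while replicates 1 and 3 were about as high as each other. Their calls (log2 fold change 0.70 ± 0.19, adjusted p = 0.0308, and log2 fold change 0.76 ± 0.18, adjusted p = 0.0146) ended without those 2 libraries, with log2 values of -0.02 and 0.14. Tigit, an inhibitory receptor, was called with log2 fold change 0.91 ± 0.25, adjusted p = 0.0309, and this call too ended without them, at log2 0.89. Cd226, the activating receptor that shares ligands with Tigit, measured 329.9, 344 and 386 in stage II and 98.8, 107 and 122 in stage III and fell 3.23-fold (log2 fold change -1.69 ± 0.25, adjusted p = 0.000341). Cd160 (log2 fold change -1.12 ± 0.20, adjusted p = 0.00169), Cd96 (log2 fold change -0.57 ± 0.11, adjusted p = 0.00389) and Cd7 (log2 fold change -0.89 ± 0.18, adjusted p = 0.00448) fell too, with replicate 2 the lowest stage III library in all 3. Cd244a, the receptor 2B4, was lower by a small amount (log2 fold change -0.34 ± 0.10, adjusted p = 0.0396), and that call ended without KO stage III replicates 1 and 3 (log2 -0.23).

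ILC1 markers fell. Of 18 tested, 14 fell and 1 rose, with a median of -2.45, and the count was the same without KO stage III replicates 1 and 3. Cd200r2 measured 109.7, 92.3 and 103 in stage II and 6.32, 4.24 and 3.39 in stage III, a fall of 21.9-fold (log2 fold change -4.45 ± 0.29, adjusted p = 9.23e-08). Tmem176b, a membrane protein of ILCs and myeloid cells, measured 355, 310.4 and 329 in stage II and 57.6, 34.2 and 44.4 in stage III (log2 fold change -2.87 ± 0.19, adjusted p = 9.23e-08). Rora, a nuclear receptor needed for ILC2, measured 95.6, 99.9 and 109.6 in stage II and 11.2, 20.2 and 7.54 in stage III, with replicate 2 the highest of stage III (log2 fold change -2.97 ± 0.27, adjusted p = 2.57e-06). Zfp683, which encodes the tissue residency factor Hobit, measured 35.8, 25.4 and 27.4 in stage II and 6.77, 7.26 and 7.03 in stage III. The 3 stage III values lay close together, and the fall was 4.21-fold (log2 fold change -2.07 ± 0.29, adjusted p = 0.00018). Itga1, which encodes CD49a, measured 29.9, 27.3 and 27.3 in stage II and 9.91, 9.75 and 3.85 in stage III (log2 fold change -1.85 ± 0.31, adjusted p = 0.000942). Cxcr6, a chemokine receptor of resident lymphocytes, measured 362, 242 and 359.8 in stage II and 45.3, 19.7 and 31.7 in stage III and fell 9.99-fold (log2 fold change -3.32 ± 0.48, adjusted p = 0.000303). The member that rose was Itgae, the integrin CD103, at 4.46, 5.40 and 5.18 in stage II and 18.4, 12.3 and 16.5 in stage III (log2 fold change 1.65 ± 0.22, adjusted p = 0.000136). In bulk RNA, fewer cells of a type and less RNA per cell cannot be told apart.

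Immature NK markers fell in part, with 5 of 15 lower, 1 higher and a median of -0.24. Il7r, the IL-7 receptor chain, also stands on the ILC1 list. It measured 621, 586 and 667 in stage II and 112, 86.4 and 48.8 in stage III, a fall of 7.57-fold (log2 fold change -2.92 ± 0.30, adjusted p = 1.05e-05). Kit, the receptor for stem cell factor, measured 326, 279 and 279 in stage II and 80.5, 129 and 50.1 in stage III, with replicate 2 the highest of stage III (log2 fold change -1.77 ± 0.35, adjusted p = 0.00404). Cd93 measured 15.6, 10.2 and 14.8 in stage II and 2.11, 3.32 and 3.08 in stage III (log2 fold change -2.25 ± 0.44, adjusted p = 0.00389). The calls of Kit and Cd93 ended without KO stage III replicates 1 and 3, at log2 -1.20 and -2.03. Ctla2a, a cathepsin inhibitor, rose instead, at 139.8, 190.4 and 168 in stage II and 433, 268 and 385 in stage III (log2 fold change 1.12 ± 0.17, adjusted p = 0.000515), and did not pass without those libraries (log2 0.69). Itgav (-0.67) and Cxcr3 (-0.95) were the other members that fell, on the log2 scale. Without the 2 libraries 3 of the 15 fell and none rose.

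The 12 largest falls among the genes named by the rule ran from -5.30 to -4.50 on the log2 scale. Mmp9, a matrix protease, measured 31.7, 21.6 and 16.7 in stage II and 0.0569, 1.31 and 0.308 in stage III (log2 fold change -5.30 ± 0.60, adjusted p = 2.98e-05). P2rx7, the receptor for extracellular ATP, measured 20.5, 15.3 and 14.4 in stage II and 0.0569, 1.01 and 0.256 in stage III (log2 fold change -5.16 ± 0.73, adjusted p = 0.00024), and Trat1, an adaptor of the T cell receptor, measured 24.3, 25.9 and 31.5 in stage II and 0, 1.79 and 0.359 in stage III (log2 fold change -5.16 ± 0.66, adjusted p = 8.18e-05). In each of these genes KO stage III replicate 1 was at 0 or 1 count and replicate 2 was the highest of stage III, so the size of the fall depends on the library. Without replicates 1 and 3 the 3 falls were -4.15, -4.05 and -3.92. Tnfrsf25, a receptor for the cytokine TL1A, measured 91.6, 76.3 and 81.8 in stage II and 0.342, 3.72 and 3.95 in stage III (log2 fold change -4.94 ± 0.54, adjusted p = 2.15e-05). Il2, the T cell growth factor, measured 18.8, 12.0 and 19.2 in stage II and 0.171, 0.875 and 0.718 in stage III (log2 fold change -4.78 ± 0.60, adjusted p = 7.77e-05). Ckb, a creatine kinase, measured 211, 163 and 169 in stage II and 11.8, 5.69 and 2.62 in stage III (log2 fold change -4.76 ± 0.42, adjusted p = 2.35e-06), and Tcrg-C4, a constant segment of the T cell receptor gamma locus, measured 302, 277 and 381 in stage II and 18.7, 9.58 and 14.1 in stage III (log2 fold change -4.51 ± 0.26, adjusted p = 6.14e-08). Unlike the first genes, Ckb and Tcrg-C4 kept at least 2 normalised CPM in every stage III library. The rest were Fam184b (-4.84), Adam19 (-5.15), Sema6d (-4.79), Ttn (-4.56) and Ccdc184 (-4.50), on the log2 scale.

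Transcription factors of maturation changed gene by gene. Of 14 late factors 3 rose and 1 fell. Zeb2, a repressor needed for late NK maturation, measured 32.7, 46.2 and 30.3 in stage II and 67.6, 155 and 70.5 in stage III, highest in replicate 2 (log2 fold change 1.43 ± 0.26, adjusted p = 0.00197). Prdm1, which encodes Blimp-1, measured 18.9, 18.1 and 18.1 in stage II and 48.1, 46.1 and 36.1 in stage III (log2 fold change 1.24 ± 0.20, adjusted p = 0.000639), and Irf8 measured 130.4, 134 and 93.3 in stage II and 228, 309 and 184 in stage III (log2 fold change 1.01 ± 0.20, adjusted p = 0.00455). With only the libraries of the groups compared, Zeb2 (adjusted p = 0.119) and Irf8 (adjusted p = 0.110) did not pass edgeR's test. Prdm1 passed it there (adjusted p = 0.0189). The log2 fold changes of Zeb2, Prdm1 and Irf8 were 2.09, 1.33 and 1.37 without KO stage III replicates 1 and 3. Ikzf3, which encodes Aiolos, fell (log2 fold change -0.63 ± 0.13, adjusted p = 0.00455), a call that ended without them (log2 -0.46).

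Of 14 early factors 2 rose, Eomes and Lef1, and 3 fell. Id3, an inhibitor of E proteins, measured 78.7, 42.0 and 63.9 in stage II and 12.1, 6.82 and 6.00 in stage III and fell 7.42-fold (log2 fold change -2.89 ± 0.27, adjusted p = 3.52e-06). Ikzf2, which encodes Helios, measured 141, 161 and 145 in stage II and 40.2, 44.2 and 35.1 in stage III and fell 3.74-fold (log2 fold change -1.90 ± 0.13, adjusted p = 1.6e-07), with the 3 libraries of each stage close together. Tox fell (log2 fold change -0.94 ± 0.23, adjusted p = 0.0177) and Lef1 rose (log2 fold change 0.70 ± 0.16, adjusted p = 0.0115), and neither passed without KO stage III replicates 1 and 3, at log2 values of -0.81 and 0.74. Tcf7, which encodes TCF-1, measured 531, 553 and 532 in stage II and 545, 474 and 491 in stage III. It did not pass in KO (log2 fold change -0.10 ± 0.18, adjusted p = 0.765), while in WT it fell by 1.09 on the log2 scale (adjusted p = 0.00195). The difference between the steps, 0.99 ± 0.26, was not called by edgeR (adjusted p = 0.201) but was by DESeq2 (adjusted p = 0.0203) and by edgeR without KO stage III replicate 2 (adjusted p = 0.0213). Of 24 alternatives 3 called it, and without KO stage III replicates 1 and 3 it was 0.89.

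Trafficking receptors split by direction, with 7 of 20 higher and 4 lower. The 4 were Gpr183, Cxcr3 and, described above, Cxcr6 and Itga1. S1pr1, another sphingosine phosphate receptor, measured 75.6, 59.5 and 57.2 in stage II and 202, 162 and 115 in stage III and rose 2.496-fold (log2 fold change 1.32 ± 0.19, adjusted p = 0.0003), and Itgb1, an integrin chain, measured 335, 307 and 308 in stage II and 798, 527 and 600.1 in stage III (log2 fold change 1.02 ± 0.14, adjusted p = 0.000201). Both, and S1pr5, kept their calls without KO stage III replicates 1 and 3. Gpr183, an oxysterol receptor that positions lymphocytes, measured 123, 232 and 177 in stage II and 31.4, 34.9 and 25.2 in stage III and fell 5.81-fold (log2 fold change -2.54 ± 0.31, adjusted p = 5.16e-05). Cxcr3, a receptor for interferon-induced chemokines, measured 884, 636 and 784 in stage II and 539, 276 and 378 in stage III and was lowest in replicate 2 (log2 fold change -0.95 ± 0.27, adjusted p = 0.0327).

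Of 10 cytokine genes 1 rose and 1 fell, and with the block within genotype 3 rose and 2 fell. Over all tested genes 5.26% rose and 4.83% fell, and with that block 1002 and 1072 of 14156. The same shares apply to the other lists. Ccl5, a chemokine stored in NK cells, measured 15735, 15940.2 and 17258 in stage II and 34888, 19652 and 53941 in stage III (log2 fold change 1.15 ± 0.24, adjusted p = 0.00582). Replicate 2 lay just above stage II, and without the other 2 libraries the log2 fold change was 0.27 and did not pass. Lta, which encodes lymphotoxin, measured 34.2, 34.2 and 27.5 in stage II and 2.73, 10.8 and 6.82 in stage III and fell 4.69-fold (log2 fold change -2.23 ± 0.39, adjusted p = 0.00137). Ifng, the main cytokine of NK cells, measured 403, 729 and 535 in stage II and 554, 914 and 581 in stage III and did not pass (log2 fold change 0.30 ± 0.37, adjusted p = 0.64). Tnf measured 39.6, 50.2 and 43.1 in stage II and 12.0, 24.8 and 25.03 in stage III, without overlap, and was not called (log2 fold change -1.10 ± 0.36, adjusted p = 0.0591). A fit with the replicate number as a block within each genotype called it (adjusted p = 0.0114).

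In the IL-2 and IL-15 pathway 2 of 18 rose and 4 fell. Il2ra, the high-affinity IL-2 receptor chain, measured 59.6, 49.7 and 64.0 in stage II and 9.85, 6.17 and 4.62 in stage III and fell 8.42-fold (log2 fold change -3.07 ± 0.34, adjusted p = 2.29e-05). Cish, a feedback inhibitor of these receptors, measured 56.6, 57.2 and 62.1 in stage II and 18.7, 22.5 and 24.9 in stage III and fell 2.66-fold (log2 fold change -1.41 ± 0.18, adjusted p = 8.4e-05). Both falls kept their calls without KO stage III replicates 1 and 3. Il2rb, the chain shared by the IL-2 and IL-15 receptors, measured 3379, 1525 and 1524 in stage II and 1092, 2039 and 626 in stage III, with overlapping stages, and did not pass (log2 fold change -0.77 ± 0.40, adjusted p = 0.214). Jak3 (log2 fold change -0.86 ± 0.18, adjusted p = 0.00528) and Stat5b (log2 fold change -0.62 ± 0.16, adjusted p = 0.0234) were lower and Pim1 (log2 fold change 1.37 ± 0.40, adjusted p = 0.0405) and Jak1 (log2 fold change 0.39 ± 0.12, adjusted p = 0.0473) higher. None of these 4 calls passed without replicates 1 and 3, where the log2 values were -0.37, -0.36, 0.98 and 0.46.

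Some ribosomal protein and respiratory chain genes rose, following 2 libraries. Of 38 ribosomal protein genes 4 rose, with a median of 0.45, and of 20 oxidative phosphorylation genes 6 rose, with a median of 0.49, while 5.26% of all tested genes rose. DESeq2 called 11 and 9 of them higher. Rps2 measured 88.3, 87.7 and 82.4 in stage II and 227, 93.0 and 132 in stage III (log2 fold change 0.80 ± 0.23, adjusted p = 0.0336), and Cox5b, a subunit of cytochrome oxidase, measured 50.1, 49.1 and 46.9 in stage II and 107, 52.5 and 95.4 in stage III (log2 fold change 0.80 ± 0.19, adjusted p = 0.0144). In both genes replicate 2 stood near stage II. The other ribosomal protein genes called were Rps14 (0.59), Rpl10a (0.63) and Rpl23 (0.52), on the log2 scale. Without replicates 1 and 3 no gene of either list was called, and the medians were 0.07 and -0.06. With the block within genotype, 9 ribosomal protein genes rose. Uqcrq and Atp5e, called at 0.84 and 0.82, turned to -0.05 and -0.05 without the 2 libraries. The part of the few detected genes in these 2 libraries in these rises was not tested. Of 15 glycolysis genes 1 fell, Pkm, at 579, 499 and 466 in stage II and 279, 447 and 186 in stage III (log2 fold change -0.76 ± 0.21, adjusted p = 0.0322), with replicate 2 nearest to stage II. With the block within genotype 2 glycolysis genes fell. Of all tested genes 4.83% fell without the block and 1072 of 14156 with it. Slc2a3, a glucose transporter, measured 187, 190.1 and 185 in stage II and 42.1, 166 and 98.4 in stage III and was not called (log2 fold change -0.87 ± 0.30, adjusted p = 0.0758), but was with the block within genotype (adjusted p = 0.0195).

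Cell cycle genes gave no call among 32 with edgeR, while 3 were under 0.05 before adjustment, DESeq2 called none and the block within genotype called 1 lower. Before adjustment 3944 of all 14156 tested genes were under 0.05. Mki67 measured 5.67, 9.01 and 10.9 in stage II and 1.25, 17.3 and 8.10 in stage III, and Top2a, a topoisomerase of dividing cells, measured 26.7, 40.3 and 32.2 in stage II and 11.2, 49.5 and 24.8 in stage III. In both, replicate 1 was the lowest and replicate 2 the highest of all 6 libraries, so the spread within stage III covers stage II. Interferon response genes fell in 3 of 20, with a median of -0.31, and with the block within genotype 5 fell and 1 rose. Oas1a, an enzyme of the antiviral response, measured 42.6, 36.2 and 39.9 in stage II and 24.3, 16.1 and 19.2 in stage III (log2 fold change -0.99 ± 0.22, adjusted p = 0.00903) and kept its call without replicates 1 and 3. Ifih1, a sensor of viral RNA, fell as well (log2 fold change -0.90 ± 0.26, adjusted p = 0.0352). Its call ended without those replicates, where the list's median log2 fold change was -0.11. With only the 6 KO libraries no interferon response gene was called.

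Immediate early and stress genes, which respond to handling, gave no call among 18 with edgeR, with none under 0.05 before adjustment and none called by DESeq2. Their summed level was 3513, 7728 and 5400.1 normalised CPM in KO stage II and 3766, 10808 and 4995 in KO stage III, lowest in replicate 1 and highest in replicate 2 of both stages. With the block within genotype 2 rose, of which the rule names Fosb (log2 0.57, adjusted p = 0.0224). Of 8 tested mitochondrially encoded transcripts none was called with edgeR, 2 were under 0.05 before adjustment and DESeq2 called 1 higher. The 2 stand against 3944 of all 14156 tested genes under 0.05 before adjustment.

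Markers of other blood cells were read over whole lists. T cell markers summed to 1304, 1592 and 1643 normalised CPM in KO stage II and to 899, 1075 and 1135 in KO stage III, and 5 of 12 tested fell. Camk4 measured 36.7, 36.2 and 38.9 in stage II and 4.16, 2.89 and 2.36 in stage III (log2 fold change -3.57 ± 0.31, adjusted p = 1.93e-06), and Cd3g, a chain of the T cell receptor complex that is also on the ILC1 list, measured 94.8, 72.8 and 110.0 in stage II and 31.2, 19.2 and 30.9 in stage III (log2 fold change -1.77 ± 0.27, adjusted p = 0.000507). Bcl11b, a factor of T cells and ILC2, fell as well (log2 fold change -1.55 ± 0.29, adjusted p = 0.00223), as did Cd3d and Trbc2. With only the 6 KO libraries 2 T cell markers were called lower. The receptor chain Cd3e measured 7.42, 8.65 and 13.0 in stage II and 2.505, 2.80 and 0.0513 in stage III, and Trac, the constant segment of the alpha chain, 8.85, 10.97 and 12.8 in stage II and 9.51, 10.2 and 21.8 in stage III. Cd28, a costimulatory receptor, stood far higher, at 303, 649 and 521 in stage II and 235, 514 and 266 in stage III. The defining genes Cd4 and Cd8a were at or under 0.0801 and 0.305 normalised CPM in all 6 libraries, and Cd5, Cd6 and Cd8b1 at or under 0.714, 0.392 and 0.744. These markers moved with the ILC1 genes and the largest falls, and their part in those results was not tested.

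B cell and antigen presentation markers summed to 1952, 1885 and 1997 in stage II and to 1026, 1076 and 1507 in stage III, and 1 of 9 tested fell. With the block within genotype 4 of the 9 fell. Ighm made up the largest part of each sum, at 1129, 1036 and 1260.5 in stage II and 949, 740 and 1382 in stage III. The gene called without the block was Cd74, the invariant chain of MHC class II, at 692, 697 and 620.3 in stage II and 39.0, 207 and 84.3 in stage III (log2 fold change -2.60 ± 0.57, adjusted p = 0.00782), a call that ended without KO stage III replicates 1 and 3 (log2 -1.70). Igkc, Ms4a1 and Cd79a, markers of B cells, were highest in KO stage III replicate 2, while Cd79b was lowest there. Igkc measured 1.43, 8.89 and 3.22 in stage II and 4.72, 39.7 and 4.72 in stage III, Ms4a1 0.143, 0.12 and 0.0436 in stage II and 0, 2.01 and 0 in stage III, Cd79a 0.178, 0.36 and 0.349 in stage II and 0.626, 2.01 and 0.256 in stage III and Cd79b 24.3, 22.2 and 29.4 in stage II and 19.3, 9.97 and 17.8 in stage III. Pax5, a defining factor of B cells, stayed at or under 0.0569. Of 5 tested markers of ILC2 and ILC3, 2 fell. Among them Ahr, the aryl hydrocarbon receptor, measured 14.3, 16.1 and 19.4 in stage II and 2.45, 4.07 and 2.41 in stage III (log2 fold change -2.47 ± 0.41, adjusted p = 0.000937), a call that ended without replicates 1 and 3 (log2 -2.03).

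Myeloid markers summed to 489, 484 and 417 in stage II and to 592, 793 and 755 in stage III, and 2 of 11 tested rose. Itgax and Cst3 made up most of each sum. Cst3 measured 164, 158 and 166 in stage II and 217, 148 and 259 in stage III. Cd68 measured 11.4, 13.6 and 15.4 in stage II and 26.9, 31.7 and 53.3 in stage III (log2 fold change 1.47 ± 0.23, adjusted p = 0.000526), and Itgax, which encodes CD11c and is also made by NK cells, measured 313, 293 and 226 in stage II and 346, 535 and 417 in stage III (log2 fold change 0.64 ± 0.16, adjusted p = 0.0153). Lyz2, a lysozyme of macrophages, measured 0.4995, 13.6 and 0.741 in stage II and 1.54, 62.0 and 9.18 in stage III and was highest in replicate 2 of both stages. Csf1r, the macrophage growth factor receptor, measured 0.107, 3.64 and 2.57 in stage II and 0, 9.80 and 1.59 in stage III and Mpo 0.0357, 0.881 and 0 in stage II and 0, 1.79 and 0.41 in stage III, both also highest in stage III replicate 2, and Adgre1, which encodes F4/80, measured 0.143, 0.32 and 1.52 in stage II and 0.0569, 3.72 and 4.87 in stage III. Elane and Ly6g were at 0 in all 6 libraries. Erythroid and platelet markers summed to 3.57, 9.33 and 6.27 in stage II and to 12.9, 19.8 and 11.1 in stage III. In stage III the platelet genes Pf4, Ppbp and Itga2b were highest in replicate 2. The globin genes Hba-a1, Hba-a2, Hbb-bs and Hbb-bt were lowest in that library. Hbb-bs, a beta globin, was called higher at these low levels (log2 fold change 1.95 ± 0.56, adjusted p = 0.0362), but not with the block within genotype (adjusted p = 0.0615). Of 3 tested stroma and endothelium markers none was called by edgeR or DESeq2, and none was under 0.05 before adjustment. The part of these cells in the rises above was not tested.

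The same step was then read in WT cells, whose libraries are separate from the KO libraries. It changed 420 genes (2.97%), 140 higher (0.989%) and 280 lower (1.98%). Values did not overlap between the WT stages for 12.0% of tested genes upwards and 13.4% downwards. Of the 420, 303 changed the same way in KO, 101 higher and 202 lower, which is 72.1% of the WT list and 21.2% of the KO list. Gzmm and Cym, described below, were called in opposite directions. The direction alone was shared by 401 of the 420 WT genes and by 1228 of the 1429 KO genes. Over the WT genes the median log2 change in their direction was 1.44 in WT and 1.36 in KO. Over the KO genes it was 0.96 in KO and 0.34 in WT. Each set was chosen for passing in its own genotype, which raises its own median, so the values are a description. Without KO stage III replicates 1 and 3 the WT list grew to 909 genes, although no WT library was left out, since all libraries share 1 filter and 1 estimate of the spread.

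Mature NK markers rose in 10 of 14 in WT and in 12 of 14 in KO, and ILC1 markers fell in 15 of 18 in WT and in 14 of 18 in KO. The mature markers counted include Itgam in both genotypes. Zfp683 fell by 4.59 on the log2 scale in WT and by 2.07 in KO, and Cxcr6 by 5.26 and 3.32. Neither difference between the steps was called by edgeR (adjusted p = 0.0595 and 0.346). DESeq2 gave adjusted p = 8.36e-05 and 0.224, and edgeR without KO stage III replicate 2 gave 0.00394 and 0.0318. Gzma rose by 1.48 in WT and by 3.32 in KO, a difference of 1.84 ± 0.34 that was not called by edgeR (adjusted p = 0.0595) but was by DESeq2 (adjusted p = 0.000114) and by edgeR without KO stage III replicate 2 (adjusted p = 0.000387). Across all tested genes the log2 changes of the 2 genotypes correlated with a Pearson r of 0.382 and a Spearman rho of 0.237, and with r = 0.609 over the 9161 genes with a mean of at least 5 normalised CPM. Genes are not independent replicates.

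**Figure D4:**
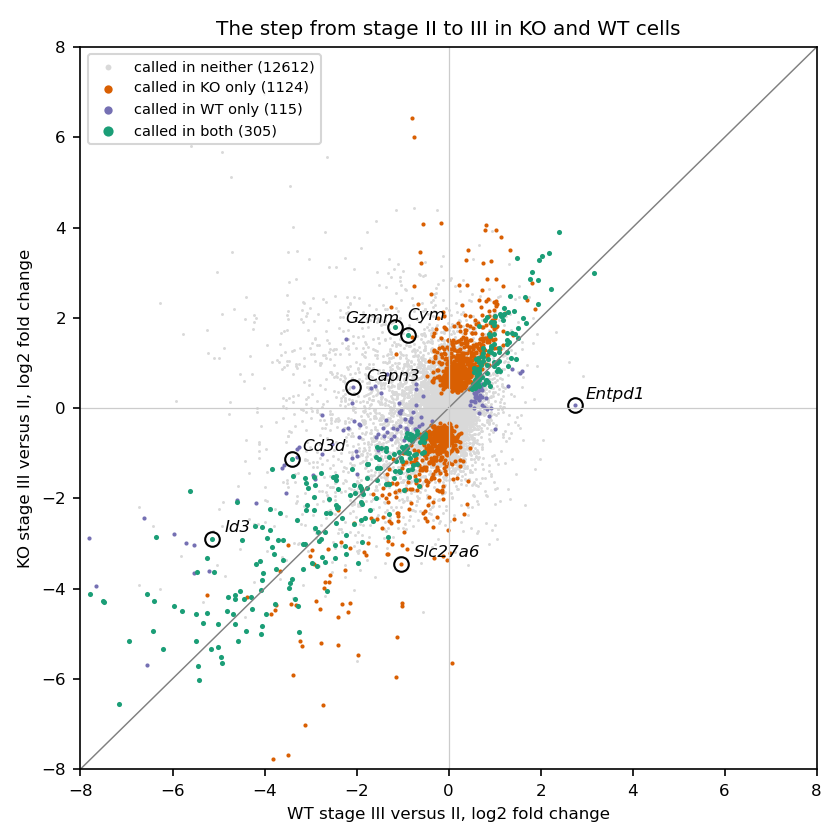
Log2 fold change from stage II to stage III in WT cells (horizontal) and in KO cells (vertical) for the tested genes, coloured by the genotype in which a gene was called, with the diagonal of equal change and circles around the 7 genes whose step differed. Genes called in both (305) lie along the diagonal in 2 quadrants, with Gzmm and Cym in the upper left, and 6 genes lie outside the axes.

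The difference between the steps was called for 7 genes of 14156 (0.0494%), 5 with a higher (0.0353%) and 2 with a lower value in KO (0.0141%). Before adjustment 1749 genes were under 0.05, DESeq2 called 115, and the fit with the block within genotype called 12. Without KO stage III replicate 2 the count was 2443, and without replicates 1 and 3 it was 2. Cym (chromosome 3, 107211293 to 107221732, GRCm38, as for the positions that follow), annotated as a chymosin gene, measured 11.4, 9.57 and 10.8 in stage II and 33.7, 27.0 and 50.7 in stage III in KO and 68.7, 59.6 and 83.7 in stage II and 24.3, 31.5 and 38.7 in stage III in WT. It rose in KO (log2 fold change 1.81 ± 0.24, adjusted p = 0.000122) and fell in WT (log2 -1.17, adjusted p = 0.00773). Gzmm (chromosome 10, 79689020 to 79695261) did the same. Its KO values are given above, and in WT it measured 61.9, 75.9 and 68.3 in stage II and 28.4, 42.0 and 40.8 in stage III (log2 -0.89, adjusted p = 0.0496). For both genes the KO stage III libraries lay in the range spanned by the WT libraries of the 2 stages, while KO stage II lay below all WT libraries of these stages. The differences were 2.97 ± 0.33 (adjusted p = 0.00135) and 2.51 ± 0.33 (adjusted p = 0.00716).

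Id3 (chromosome 4, 136143497 to 136145755) fell in both genotypes, but in WT it reached 2.01, 1.80 and 1.66 normalised CPM in stage III from 76.4, 61.8 and 54.1 in stage II, against 12.1, 6.82 and 6.00 from 78.7, 42.0 and 63.9 in KO. The difference was 2.25 ± 0.37 (adjusted p = 0.0358). Cd3d (chromosome 9, 44981786 to 44987339), a chain of the T cell receptor complex, went from 126, 137 and 118 to 14.1, 11.9 and 10.05 in WT and from 45.4, 36.3 and 49.5 to 26.5, 12.2 and 21.4 in KO. Both genotypes fell, WT from a higher level and further (2.27 ± 0.33, adjusted p = 0.0143). Capn3 (chromosome 2, 120456019 to 120504913), a calpain protease, went from 29.0, 20.9 and 21.7 to 5.98, 5.46 and 5.61 in WT, and from 8.56, 5.44 and 9.71 to 15.9, 7.09 and 9.85 in KO, where it did not pass the test. Its difference was 2.54 ± 0.39 (adjusted p = 0.0225).

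Entpd1 (chromosome 19, 40612366 to 40741602), which encodes the ectoenzyme CD39 that breaks down extracellular ATP, rose from 7.56, 2.39 and 3.96 to 37.8, 30.7 and 25.4 in WT. In KO it measured 6.96, 8.53 and 8.36 and then 5.24, 8.35 and 11.3, with overlapping stages (log2 fold change 0.07 ± 0.32, adjusted p = 0.914). The difference was -2.68 ± 0.45 (adjusted p = 0.0376). Slc27a6, a fatty acid transporter, fell in KO from 39.3, 29.7 and 38.2 to 3.02, 4.90 and 1.85 (log2 fold change -3.45 ± 0.30, adjusted p = 2.29e-06). In WT it went from 17.9, 17.4 and 16.7 to 6.29, 9.71 and 9.44 and did not pass (adjusted p = 0.0563). The difference was -2.42 ± 0.40 (adjusted p = 0.0358). Of the 7 genes, Cym kept its call without KO stage III replicates 1 and 3 (adjusted p = 0.00997).

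**Figure D5:**
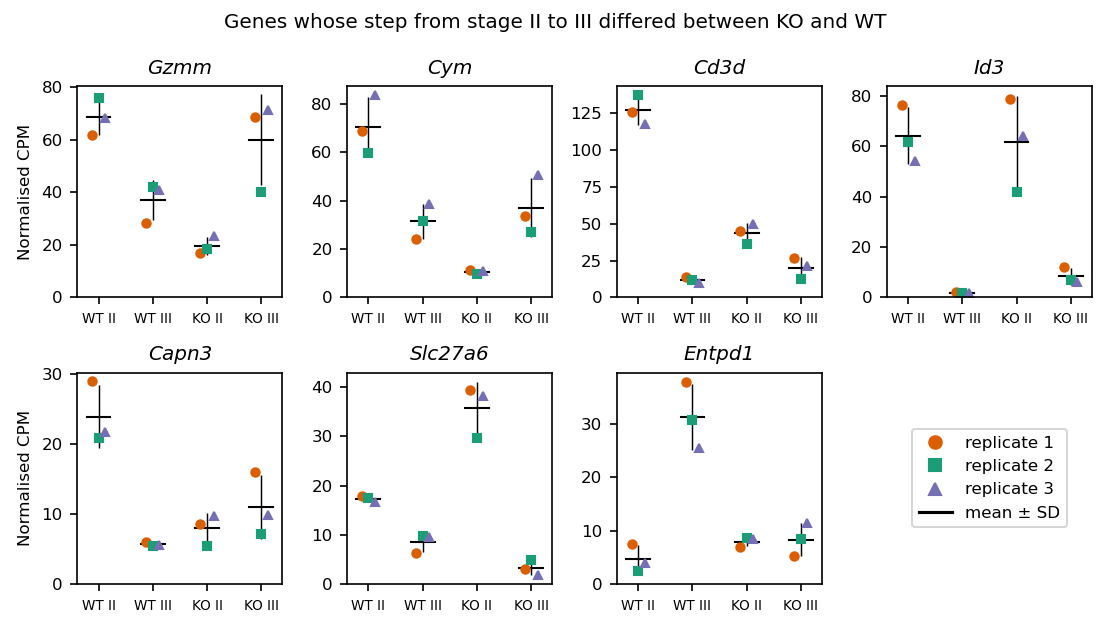
Normalised CPM of the 7 genes whose step from stage II to stage III differed between KO and WT, with 1 symbol for each replicate and a bar and line for the mean ± SD (n = 3) of each group. Gzmm and Cym are lower at stage III in WT and higher at stage III in KO, while Entpd1 is higher at stage III in WT and its KO stages overlap.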

How the data were processed

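Sequencing libraries of sorted splenic NK cells were compared between the stages. Alignment with STAR 2.0.4 and counting with featureCounts 1.4.5 (Subread) by the authors is stated per the submitters' processing notes. Build, read type and strandedness were not given in the sources used here. Each deposited table gives, per the file headers, a raw count, a CPM and an RPKM for 41388 Ensembl genes. The count was tested, the deposited CPM scales each library by its total, and the RPKM was used for granzymes. Positions and symbols come from GENCODE M21 (GRCm38), which held 40254 of the IDs, and promoters from RefSeq.

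Counts of all 18 libraries were fitted in 1 model with 6 group means by edgeR 4.0.16 in R 4.3.3 (quasi-likelihood test, filter by group, trimmed mean of M values), with Benjamini-Hochberg adjustment over 14156 genes and calls at an adjusted p under 0.05. Standard errors were approximated from the F statistic (log2 fold change over its square root). The fit was tested on simulated data. Alternatives used DESeq2 1.42.0, voom weights of limma 3.58.1, other scalings and filters, fewer libraries and a replicate block. Named genes were the 12 highest and 12 lowest called fold changes with a mean CPM of at least 5, no overlap and a symbol that is no predicted-gene name, up to 4 called members per list and direction by p, the first 2 members of each list, up to 8 called differences per direction, and Eomes, Tbx21, Cd27, Itgam and Ncr1; Spn, Itgb2, Trbc2 and the marker genes given by level alone were named after their values were seen. The members, the 26 gene lists and the rule were chosen with earlier results of these data known. Of 385 list symbols 383 were found directly. Some genes counted in the lists are not reported here by name.

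Same-numbered KO stage II and III libraries deviated together from their group means (correlations 0.154, 0.313 and 0.222 for replicates 1, 2 and 3), as did the WT pairs (0.485, 0.286 and 0.311). Differently numbered stage II and III libraries correlated at -0.236 to 0.0293 in KO and at -0.384 to 0.186 in WT, so the highest WT value lay above the same-numbered KO value of 0.154. The replicate numbers were taken as pairs within a genotype from these values and not from the labels. Same-numbered WT and KO libraries did not all deviate together (-0.0994 to 0.122 in stage II and -0.00573 to 0.0506 in stage III). The main test used no block, so its p-values do not take the pairs within a genotype into account.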

Additional observations from a re-analysis of the deposited data

Results flagged for a closer look

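For 7 genes the step from stage II to stage III differed between KO and WT cells by the test of the difference itself. Values are the KO step minus the WT step on the log2 scale, from 3 libraries in each of the 4 groups, and the number of alternatives out of 24 in which the difference was still called follows each. Cym stood at 2.97 and was called in 24. Gzmm stood at 2.51 and was called in 22. Cd3d stood at 2.27 and was called in 18. Capn3 stood at 2.54 and was called in 14. Id3 stood at 2.25 and was called in 12. Entpd1 stood at -2.68 and was called in 11. Slc27a6 stood at -2.42 and was called in 13. Without KO stage III replicates 1 and 3 the differences were 2.499 for Cym, 1.91 for Gzmm, 1.55 for Cd3d, 1.90 for Capn3, 1.95 for Id3, -2.69 for Entpd1 and -1.85 for Slc27a6. All 7 kept their direction in that fit. It shares its libraries with the main fit from which the 7 genes were taken, so the shared direction is a description.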

How the results depend on the processing

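The KO step gave 1429 genes and the WT step 420, and 7 differed between them. With DESeq2 the counts were 2281, 684 and 115, and with voom quality weights 625, 1830 and 39. With only the stage II and III libraries the KO step gave 788 and the difference 2. With only the libraries of the groups compared the KO step gave 189 and the WT step 1014; the difference could not be fitted in 1 genotype. With no filter on low counts the WT step gave 734 and the difference 290. Without KO stage III replicates 1 and 3 the 3 counts were 506, 909 and 2, and in an alternative chosen after seeing the data, which also left out stage IV, 449, 892 and 3. Leaving out 1 library at a time gave 620 to 4828 for the KO step (highest without KO stage III replicate 2, lowest without KO stage II replicate 1), 204 to 629 for the WT step and 2 to 2443 for the difference (highest without KO stage III replicate 2). The cause was not tested. Fcer1g, Uqcrq and Atp5e turned in sign without KO stage III replicates 1 and 3, to -0.017, -0.052 and -0.050, and with stage IV also left out to -0.023, -0.058 and -0.055. With a replicate block the KO step gave 1789 genes, and with a replicate block within genotype, which pairs the libraries, 2074, the WT step 563 and the difference 12. Of 138 named genes, 133 kept their call with the block within genotype, 4 gained one (Tnf, Slc2a3, Fosb and Ndufa4) and 1 lost it (Hbb-bs). All 138 kept their call with RLE scaling, upper-quartile scaling and a robust spread. With voom quality weights 107 kept it and 30 lost it. With only the libraries of the groups compared 86 kept it and 48 lost it. The 3 KO stage III libraries limit the comparison: they vary more than the other groups, and 1592 tested genes had no count in replicate 1.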
